A study of Mus musculus with 21 samples.

Results

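The livers of Cse knockout and WT mice were compared after a diet from which tryptophan had been removed, over 5 knockout and 2 WT libraries of the 21 in the series. Cse (gene symbol Cth) encodes cystathionine gamma-lyase, the enzyme that releases cysteine from cystathionine, so that animals without it must take cysteine from food. The 7 libraries were taken by their genotype and diet labels, and all 14370 genes that passed a filter on low counts were tested. The knockout animals (KO, Cse-/-) are of a mixed 129/C57BL/6 background. The comparison animals are labelled WT, while the study's text describes Cse+/- mice, so the WT values may come from animals with 1 intact copy. All 7 mice received a defined amino acid diet (5CC7) lacking tryptophan, in which every other amino acid was raised in proportion, under calorie restriction and after a calorie-restricted control diet. Each was at least 9 weeks old when the diets began, and the study's text describes males. Livers on the control diet (4 KO, 3 WT) and on a diet without cysteine (3 KO, 4 WT) serve only to show where the genotype difference without tryptophan differs.

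Tryptophan is an essential amino acid, and its loss from the diet leaves uncharged transfer RNA that the kinase GCN2 senses. GCN2 phosphorylates eIF2alpha, ATF4 is then translated, and ATF4 drives genes for amino acid synthesis and uptake such as Asns, Psat1 and Trib3; this programme is the integrated stress response. Cysteine feeds protein, glutathione, taurine and coenzyme A synthesis, and the trans-sulfuration pathway that ends in Cth makes it from methionine. In the liver a change of diet also moves immediate early genes, whose transcription starts within minutes of a hormone or cytokine signal, and the SREBP-driven genes of fatty acid and cholesterol synthesis.

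The depth was 9752555 to 18909922 assigned read pairs in these 7 libraries (8889951 to 27230852 over all 21), and levels are given as CPM, the count of a gene over the TMM-scaled library size scaled alike in all libraries. The 2 WT libraries stood apart from each other. They differed by more than 2-fold at 810 genes on the log2(CPM + 1) scale, against 98 to 408 genes in the 28 other pairs of libraries from one group, and their root mean square difference was 0.53 log2 units against 0.291 to 0.453. Each WT library was 0.385 to 0.512 log2 units from each KO library, so both lay nearer to the KO libraries than to each other. Of the 810 genes, 397 were higher in WT replicate 1 and 413 in WT replicate 2, and the KO mean was nearer to replicate 2 at 585. The values for both are therefore given separately, and the value without one of them is added where leaving it out ended a call. Hepatocyte markers were high in every library (10 of 10 markers detected, summed level 69970 to 99010 CPM in WT and 66150 to 91650 CPM in KO).

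Promoter sequences of 3 genes that the results turn on are shown first, 250 bases before to 50 bases after the RefSeq start (RefSeq, GRCm38.p6). Asns (chr6:7693160-7693459, minus strand) is shown because it is the stress response gene that was higher in KO; the capitals mark the 1 match to TGATGNAA, the C/EBP-ATF response element that ATF4 binds, whose first base lies 23 bases before the start.
Asns: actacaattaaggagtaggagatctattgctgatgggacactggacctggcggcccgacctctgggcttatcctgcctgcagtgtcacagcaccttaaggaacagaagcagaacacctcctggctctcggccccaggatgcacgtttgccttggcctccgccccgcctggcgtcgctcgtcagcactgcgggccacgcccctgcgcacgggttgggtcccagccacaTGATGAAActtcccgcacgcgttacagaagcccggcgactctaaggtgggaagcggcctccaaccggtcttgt
Nr4a1 (chr15:101266596-101266895, plus strand) had the largest fall among the immediate early genes tested; the capitals mark 4 matches to TGACG or its reverse complement CGTCA, the core of the cyclic AMP response element, at 233, 213, 69 and 40 bases before the start.
Nr4a1: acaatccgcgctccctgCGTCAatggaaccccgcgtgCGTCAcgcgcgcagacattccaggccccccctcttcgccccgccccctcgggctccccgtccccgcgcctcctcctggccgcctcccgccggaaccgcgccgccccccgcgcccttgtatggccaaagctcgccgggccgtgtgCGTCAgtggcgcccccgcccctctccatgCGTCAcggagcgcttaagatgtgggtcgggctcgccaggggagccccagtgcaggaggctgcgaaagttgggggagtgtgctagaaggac
Socs3 (chr11:117969317-117969616, minus strand) is a cytokine-induced gene; the capitals mark the 1 match to TTCNNNGAA, the element read by STAT factors, 154 bases before the start.
Socs3: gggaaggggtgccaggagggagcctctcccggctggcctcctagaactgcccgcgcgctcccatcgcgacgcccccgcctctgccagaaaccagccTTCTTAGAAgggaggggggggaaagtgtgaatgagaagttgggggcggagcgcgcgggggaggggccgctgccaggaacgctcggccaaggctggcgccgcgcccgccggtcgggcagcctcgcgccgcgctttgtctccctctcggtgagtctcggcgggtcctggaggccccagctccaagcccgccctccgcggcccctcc
Each motif was searched on both strands in windows of this length, and TGATGNAA was found in 2.83% of the 10186 tested genes with a window, TGACG in 34.8% and TTCNNNGAA in 8.38%.

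Cth itself was measured at 452 CPM in WT replicate 1 and 108 CPM in WT replicate 2, and at 9.61, 12.0, 13.7, 11.9 and 12.2 CPM in KO replicates 1 to 5. The groups did not overlap, and the spread was in the WT pair. The log2 fold change was -4.56 ± 0.31 (SE; edgeR's quasi-likelihood test, adjusted p = 4.09e-08) and lay between -5.25 and -3.18 when any 1 of the 7 libraries was left out. On the other diets Cth ranged from 157 to 286 CPM in the WT libraries and from 6.34 to 14.99 CPM in the KO libraries, so WT replicate 1 was above and WT replicate 2 below every other WT library. Reads on Cth remained in all KO libraries, and the deleted part of the gene was not used here.

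Both called neighbours of Cth (chr3:157894248-157925077, minus strand, GRCm38) also fell. Gm43314 lies inside Cth on the same strand (chr3:157894961-157897191) and was at 43.4 and 7.10 CPM in the WT libraries and at 0.0543 to 0.522 CPM in KO, a log2 fold change of -6.40 ± 0.62 (edgeR adjusted p = 1.2e-05). Its log2 fold change was -4.56 without WT replicate 1 and -7.18 without WT replicate 2. Where Gm43314 overlaps an exon of Cth its reads and those of Cth cannot be told apart. Gm6520, a processed pseudogene 5374 bases beyond the 3' end of Cth, was at 14.4 CPM in WT replicate 1, 1.05 CPM in WT replicate 2 and 0.224 to 1.35 CPM in KO. Its groups overlapped, and its log2 fold change of -3.43 (edgeR adjusted p = 0.0113) was -0.55 (edgeR adjusted p = 0.85) without WT replicate 1. Of the 34 tested genes within 10 Mb of Cth, these were the only 2 called, with DESeq2 too. By edgeR, 0.125% of all genes were called lower. Limma-voom called 1 of the 34.

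Across the genome, 28 of 14370 genes (0.195%) passed an adjusted p of 0.05 in the edgeR fit of all 21 libraries, and these are the genes termed called; 10 were higher in KO (0.0696%) and 18 lower (0.125%). At an unadjusted p of 0.05 there were 1281 genes (8.91%), 610 higher (4.24%) and 671 lower (4.67%). In 715 genes (4.98%) every KO library was above both WT libraries, and in 714 (4.97%) every KO library was below both. A random order of the 7 libraries also sets the groups apart in some genes, so standing apart is weak evidence by itself. The median log2 fold change of all genes was -0.00. The 28 held genes of fatty acid uptake and desaturation (Cd36, Scd1), amino acid synthesis and trans-sulfuration (Asns, Cth), immediate early factors (Nr4a1, Egr1, Socs3), drug and steroid enzymes (Cyp2a5, Cyp4a12a, Sult2a7, Aldh1a7) and membrane proteins (Robo1, Scnn1a, Atp2b2, Cd9). There were 7 genes called in each of the 7 fits that left out 1 library: Cth, Gm43314, Tmem19, Cd36, Asns, Ppp1r9a and H2-Q7. Of these only Cth and Gm43314 also passed under every other setting tried. Asns, Ppp1r9a and H2-Q7 did not pass with limma-voom, Tmem19, Cd36, Ppp1r9a and H2-Q7 did not pass in a fit of the 2 groups alone, and H2-Q7 did not pass with the replicate number as a block. Limma-voom kept 6 of the 28, the fit of the 2 groups alone 4 and the replicate block 15. Ppp1r9a, Robo1, Arsg, Snhg11, Atp2b2, Rslcan18, Cd9 and Tle1 overlap another annotated gene, and reads of overlapping genes are uncertain. The count was 14 without WT replicate 1, 10 of them among the 28, and 230 without WT replicate 2, 22 of them among the 28. The 18 calls lost without WT replicate 1 were those of Nr4a1, Robo1, Socs3, Egr1, Arsg, Snhg11, Gm6520, Atp2b2, Scd1, Cpne2, Cyp4a12a, Cenpm, Rslcan18, Sult2a7, Hist1h1c, Tmem98, Cd9 and Tle1. The 6 lost without WT replicate 2 were those of Aldh1a7, Scnn1a, Cyp2a5, Cenpm, Rslcan18 and Sult2a7, and the 6 lost without KO replicate 3 were those of Scd1, Cenpm, Hist1h1c, Tmem98, Cd9 and Tle1. Tmem98 was also lost without KO replicate 2, Cd9 without KO replicate 5, and Tle1 without KO replicate 4 or 5. Of the 58 uncalled genes named in the text, 16 passed without WT replicate 2 (Gstm3, Csad, Cyp1a2, Pklr, Fitm1, Fos, Ppp1r3g, Irs2, Cyp2b10, Cyp2c29, Slc3a1, Slc38a2, Vnn1, Tfrc, Dnajb4 and Bhlhe40) and 1 without WT replicate 1 (Adrb3).

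**Figure D1:**
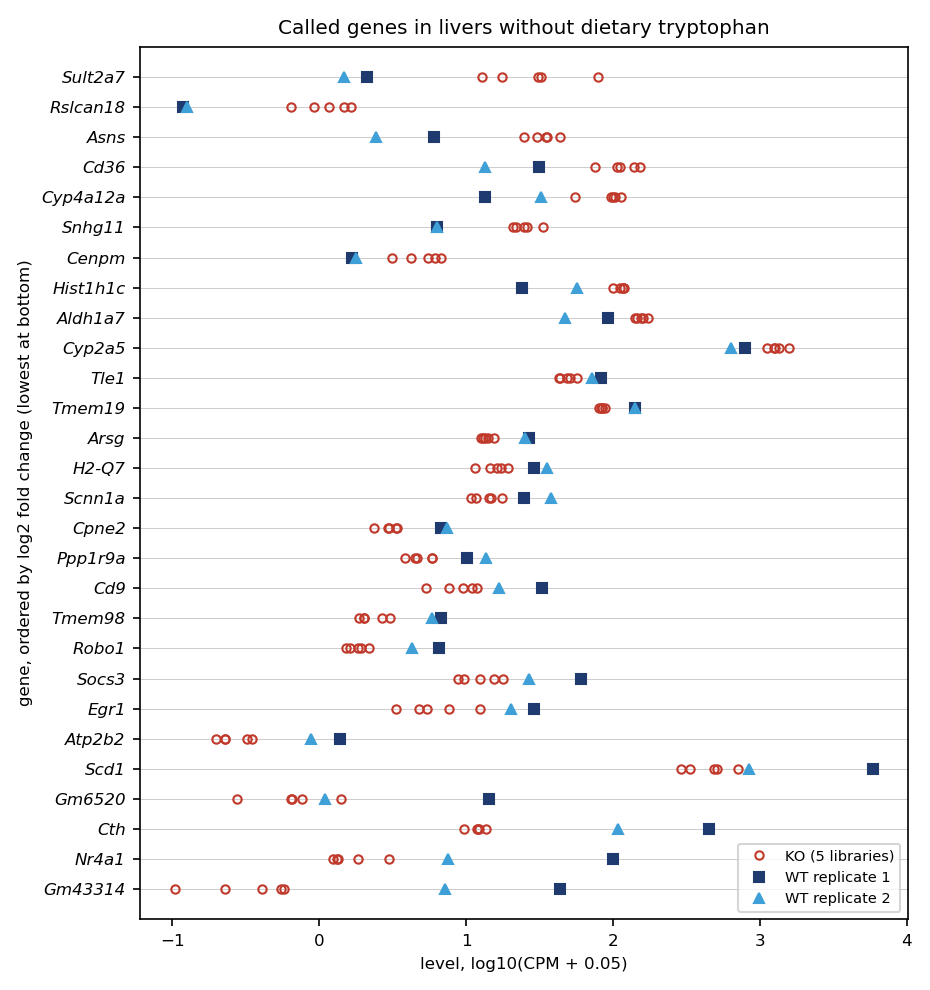
Level of each of the 28 called genes in each of the 7 libraries, as log10(CPM + 0.05) on the horizontal axis; open red circles are the 5 KO libraries, the dark square is WT replicate 1 and the light triangle WT replicate 2. The KO points lie on one side of both WT points for every gene but Gm6520, and the WT points themselves lie far apart for Nr4a1, Scd1, Cth, Gm43314 and Gm6520.

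Among the genes higher in KO, Cd36, which carries long-chain fatty acids across the plasma membrane, was at 31.5 and 13.4 CPM in the WT libraries and at 139, 75.6, 152, 111 and 106 CPM in KO. Every KO library was above both WT libraries. Its log2 fold change was 2.38 ± 0.37 (edgeR adjusted p = 0.0061), and 3.12 or 1.89 without WT replicate 1 or 2. Snhg11, a long non-coding host of small nucleolar RNAs, was at 6.24 and 6.27 CPM in WT and 20.95 to 33.1 CPM in KO, with a log2 fold change of 2.02 ± 0.34 (edgeR adjusted p = 0.0092, and 0.15 without WT replicate 1). Its WT level without tryptophan was below the mean on the control diet, 15.8 ± 4.91 CPM (SD, n = 3). Cenpm, a centromere protein, was at 1.61 and 1.72 CPM in WT and 3.06 to 6.65 CPM in KO (log2 fold change 1.61 ± 0.31, edgeR adjusted p = 0.0234, and 0.266 or 0.0511 without WT replicate 1 or 2). Rslcan18, a zinc finger repressor, was at 0.0671 and 0.0747 CPM in WT and 0.588 to 1.58 CPM in KO, a log2 fold change of 3.78 ± 0.72 (edgeR adjusted p = 0.0234, and 0.266 or 0.0562 without WT replicate 1 or 2). This rests on 1 read in each WT library against 73 reads in all KO libraries, a ratio of 14.7 with an exact 95% interval of 3.93 to 124 that covers counting error only. On the control diet and without cysteine, Rslcan18 averaged 1.10 and 0.768 CPM in WT and 1.24 and 1.10 CPM in KO. The KO mean without tryptophan was 1.12 CPM, so it was the WT level that stood apart. Hist1h1c, a linker histone, was at 23.9 and 56.7 CPM in WT and 101 to 119 CPM in KO (log2 fold change 1.49 ± 0.29, edgeR adjusted p = 0.0237). Its log2 fold change was 0.99 (edgeR adjusted p = 0.329) without WT replicate 1 and 2.24 without WT replicate 2, and it was not called with library totals alone.

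Among the genes lower in KO, Tmem19 had the tightest values, 142 CPM in both WT libraries and 83.8, 88.3, 84.4, 79.9 and 82.8 CPM in KO. Its log2 fold change of -0.76 ± 0.10 (edgeR adjusted p = 0.00171) moved only between -0.78 and -0.74 when 1 library was left out. Ppp1r9a, the actin-binding scaffold neurabin, was at 10.1 and 13.5 CPM in WT and 3.81 to 5.83 CPM in KO, a log2 fold change of -1.27 ± 0.20 (edgeR adjusted p = 0.0061). Robo1, a receptor for Slit guidance proteins, was at 6.51 and 4.26 CPM in WT and 1.47 to 2.12 CPM in KO (log2 fold change -1.61 ± 0.26, edgeR adjusted p = 0.0061), and without WT replicate 1 its value was -1.27 (edgeR adjusted p = 0.232). H2-Q7, a class I histocompatibility gene of a family with near-identical members, was at 28.9 and 35.3 CPM in WT and 11.5 to 19.4 CPM in KO (log2 fold change -1.02 ± 0.17, edgeR adjusted p = 0.00877). Arsg, a lysosomal sulfatase, was at 26.7 and 25.2 CPM in WT and 12.6 to 15.4 CPM in KO (log2 fold change -0.92 ± 0.15, edgeR adjusted p = 0.00877, and 0.15 without WT replicate 1). The other members of this group were Scnn1a (a subunit of the epithelial sodium channel, -1.18), Cpne2 (a copine, -1.24), Atp2b2 (a plasma membrane calcium pump at or under 1.34 CPM, -2.30), Tmem98 (-1.49), Cd9 (a tetraspanin, -1.48) and Tle1 (a Groucho corepressor, -0.67). All 6 had KO libraries below both WT libraries. Without WT replicate 1 Cd9 was at -0.91 (edgeR adjusted p = 0.473), Atp2b2 at -1.90 (edgeR adjusted p = 0.305), Cpne2 at -1.30 (edgeR adjusted p = 0.142), Tmem98 at -1.38 (edgeR adjusted p = 0.266) and Tle1 at -0.57 (edgeR adjusted p = 0.336). Without WT replicate 2 Scnn1a was at -0.85 (edgeR adjusted p = 0.0881).

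Chromosome 6 held 5 of the 28 genes (Asns, Ppp1r9a, Scnn1a, Atp2b2 and Cd9), which is 17.9% of the called genes against 4.91% of those tested. Cd9 began 115 kb beyond the end of Scnn1a, while Asns and Ppp1r9a were 2509508 bases apart. None of the 8 tested genes within 1 Mb of Asns, Asns itself left out, was called by edgeR, DESeq2 or limma-voom, and 1 had an unadjusted p below 0.05. Chromosome 3, which carries Cth, held 3.

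Most of the 28 genes had the same direction on the other diets, in comparisons that use other animals. On the control diet 25 of 28 had the same sign and 10 were called there, among the 46 genes (0.320%) called on that diet. Without cysteine 27 of 28 had the same sign and 20 were called there, where 4055 genes (28.2%) were called, 14.8% higher and 13.4% lower. All 3 diets called 9 genes: Cth, Tmem19, Cd36, Asns, Ppp1r9a, Robo1, Snhg11, Cenpm and Sult2a7. For Cd36 the log2 fold changes were 2.38 without tryptophan, 1.98 on the control diet and 2.98 without cysteine; for Ppp1r9a they were -1.27, -1.51 and -1.54. The genes with the opposite sign on the control diet were Socs3, Egr1 and Hist1h1c, at 0.31, 0.20 and -0.06, none of them called there. Arsg had the opposite sign without cysteine, at 0.08.

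**Figure D2:**
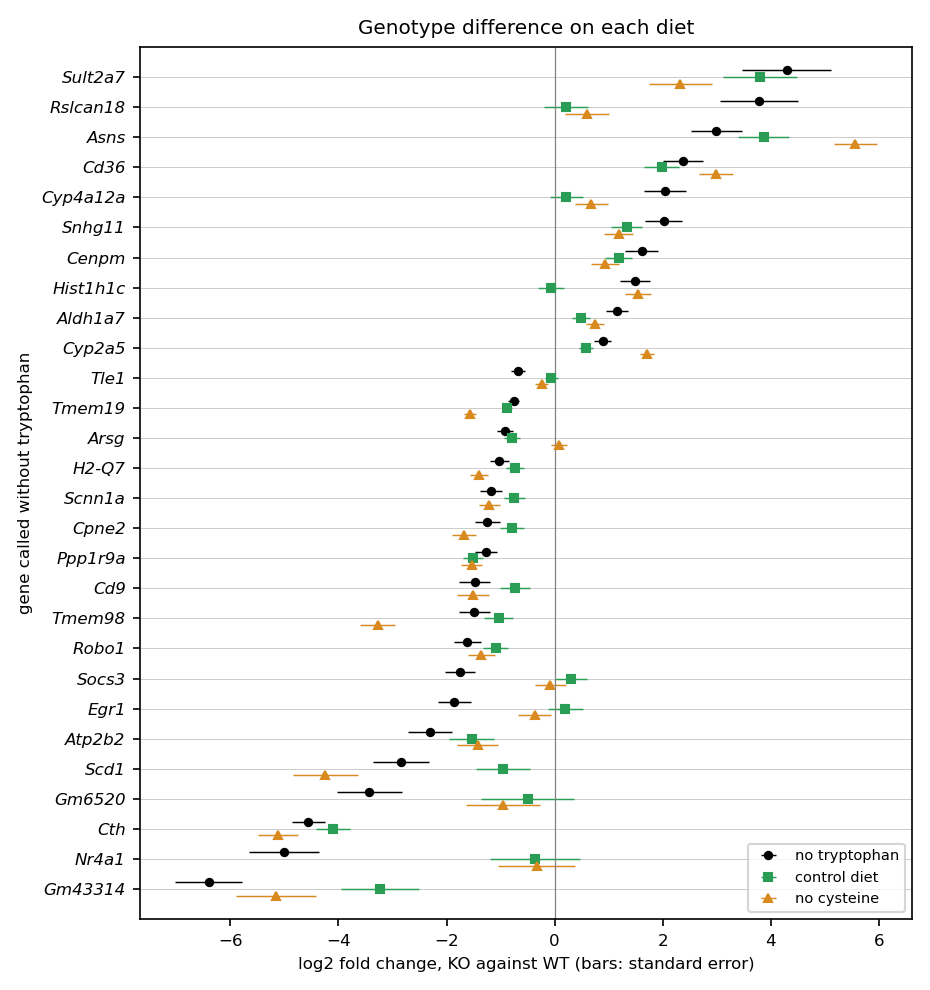
Log2 fold change of KO against WT with its standard error for the 28 genes, without tryptophan (black circles), on the control diet (green squares) and without cysteine (orange triangles). Cd36, Ppp1r9a and Robo1 have like values on the 3 diets, Asns is lowest without tryptophan and highest without cysteine, and Nr4a1, Socs3, Egr1 and Rslcan18 are far from 0 only without tryptophan.

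Immediate early genes made up 3 of the 18 genes that fell, and all 3 were highest in WT replicate 1. Of 31 members tested, 3 fell and none rose, against 0.125% and 0.0696% of all genes; 29 had a log2 fold change below 0, the median was -0.79 against -0.00 for all genes, and 17 had an unadjusted p below 0.05, all lower (against 4.67%). DESeq2 called 7 of them and limma-voom 1, all lower. Nr4a1, an orphan nuclear receptor induced by glucagon and stress signals, was at 101 CPM in WT replicate 1 and 7.47 CPM in WT replicate 2, and at 1.79, 2.93, 1.29, 1.19 and 1.27 CPM in KO. Both WT libraries were above all others in the series: the 14 libraries on the other diets ranged from 0.349 to 4.96 CPM. The log2 fold change was -5.00 ± 0.65 (edgeR adjusted p = 0.000937), and -2.14 (edgeR adjusted p = 0.336) without WT replicate 1.

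Egr1, a zinc finger factor, was at 29.0 and 20.1 CPM in WT and at 12.4, 7.63, 4.76, 3.26 and 5.37 CPM in KO (log2 fold change -1.85 ± 0.31, edgeR adjusted p = 0.00877). Socs3, the feedback inhibitor of JAK-STAT signalling, was at 60.2 and 26.9 CPM in WT and at 17.8, 9.67, 12.4, 8.80 and 15.4 CPM in KO (log2 fold change -1.75 ± 0.28, edgeR adjusted p = 0.0061). For both genes the WT libraries without tryptophan were above every library on the other diets, which reached 15.3 CPM for Egr1 and 15.3 CPM for Socs3, while the KO libraries lay at or near the range of those diets. Without WT replicate 1 the log2 fold changes were -1.56 and -1.06 (edgeR adjusted p = 0.213 and 0.332). Fos, which pairs with Jun in AP-1, did not pass the edgeR test, with 14.6 and 3.21 CPM in WT and 0.224 to 1.95 CPM in KO (log2 fold change -2.99, edgeR adjusted p = 0.0523). The log2 value was -1.51 without WT replicate 1 and -3.70 (edgeR adjusted p = 0.00528) without WT replicate 2. Among 19 clock genes, none called by edgeR (3 with an unadjusted p below 0.05, 1 called by DESeq2, 0 by limma-voom; 3 called by edgeR without WT replicate 2) and with a median of -0.14, the repressor Bhlhe40 was at 112 and 73.6 CPM in WT and 34.5 to 72.3 CPM in KO (log2 fold change -0.85, edgeR adjusted p = 0.153), with -0.51 or -1.12 without WT replicate 1 or 2. Gadd45b had KO values on both sides of WT, 34.2 CPM in KO replicate 1 and 1.19 to 5.77 CPM in the other 4 against 7.18 and 2.61 CPM in WT.

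The summed level of the 31 genes was 2250 CPM in WT replicate 1, 1406 CPM in WT replicate 2 and 982 to 1455 CPM in KO, so WT replicate 2 lay inside the KO range. Without WT replicate 1 the list had 0 called genes, 7 with an unadjusted p below 0.05, 23 of 31 members below 0 and a median of -0.30; without WT replicate 2 it had 11 called, all lower, and a median of -1.06. The core of the cyclic AMP element (TGACG) was in 14 of the 26 members with a window (53.8%, against 34.8% of all), and STAT elements in 4 (15.4%, against 8.38%).

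**Figure D3:**
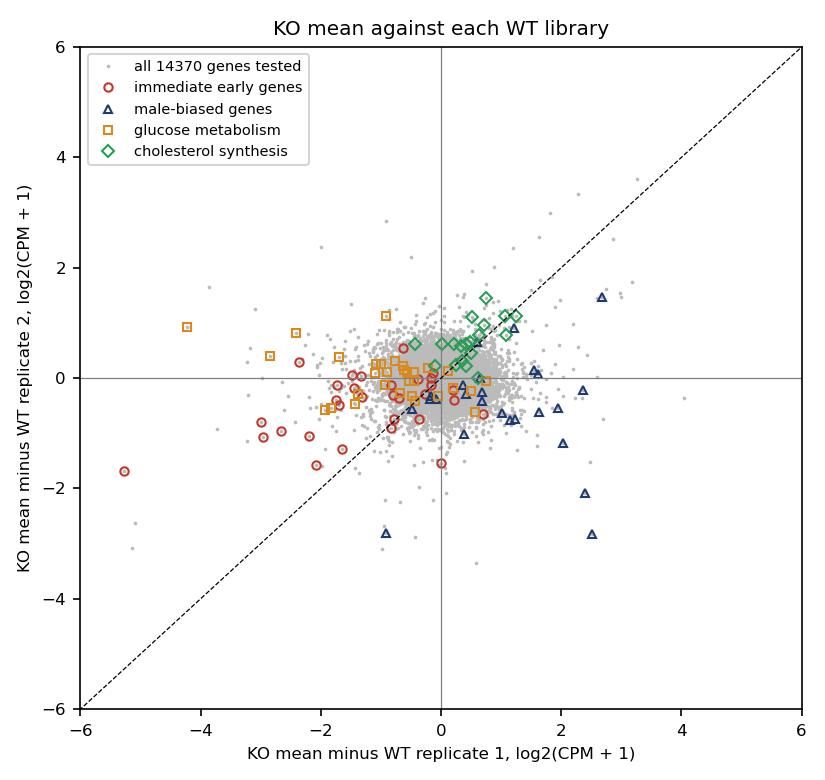
KO mean minus WT replicate 1 (horizontal) and minus WT replicate 2 (vertical), in log2(CPM + 1), for the 14370 genes tested (grey) and the members of 4 lists; both axes share the KO libraries, and the dashed line marks equal differences. The KO mean was below both WT libraries for 23 of 31 immediate early genes and above both for 16 of 19 cholesterol synthesis genes. It lay between the WT libraries for 19 of 31 glucose genes and 15 of 25 male-biased genes. Of all 14370 genes, 3491 lay below both, 3283 above both and 7596 between, so the last 2 lists were near the share of all genes.

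Genes of lipid metabolism were described by branch. None of the 19 enzymes of cholesterol synthesis described here passed the edgeR test or limma-voom, while DESeq2, the replicate block and the fit without the filter on low counts each called 3, all higher. Their values leaned one way: 18 had a log2 fold change above 0, the median was 0.50, 12 had an unadjusted p below 0.05, all higher (against 4.24% of all genes), and in 15 every KO library was above both WT libraries (against 4.98%). Their summed level was 909 and 818 CPM in WT and 1226, 1119, 1104, 1107 and 1212 CPM in KO. Idi1, the isomerase that makes dimethylallyl diphosphate, was at 0.536 and 0.896 CPM in WT and 1.68 to 3.21 CPM in KO (log2 fold change 1.71 ± 0.55, edgeR adjusted p = 0.271). Sqle, which makes squalene epoxide, was at 5.90 and 5.602 CPM in WT and 8.58 to 16.5 CPM in KO (log2 fold change 1.25 ± 0.41, edgeR adjusted p = 0.296). The median of the list was 0.67 without WT replicate 1 and 0.52 without WT replicate 2, whereas the 12 genes at an unadjusted p below 0.05 became 9 and 6, and 4 with limma-voom. The median was 0.56 on the control diet, with 17 of 19 above 0, and -0.84 without cysteine, where 14 of 19 were called lower (against 13.4% of all genes). The CCAAT box that NF-Y binds (CCAAT) was in 14 of the 15 members with a window (93.3%, against 42.6% of all). The exact string ATCACCCCA, searched as the SREBP element, was in 0 (against 0.295%). At so low a share, 0 of 15 cannot tell whether these promoters hold SREBP sites.

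Scd1, the desaturase that makes oleate, was the 1 gene called by edgeR among 23 of fatty acid synthesis, against 0.195% of all genes. DESeq2 called 3 of the 23 and limma-voom 0. Scd1 fell, at 5894 CPM in WT replicate 1, 848 CPM in WT replicate 2 and 513, 489, 335, 289 and 716 CPM in KO. WT replicate 1 lay in the range of WT livers on the control diet (4917 to 8603 CPM), and WT replicate 2 was just above the highest KO library. The log2 fold change of -2.85 ± 0.52 (edgeR adjusted p = 0.0165) was -0.86 (edgeR adjusted p = 0.678) without WT replicate 1. Of the 23, 5 had a log2 fold change above 0 and the median was -0.15, or -0.07 and -0.12 without WT replicate 1 and 2. More of them passed without WT replicate 2, where more of all genes passed too. Pklr, liver pyruvate kinase, was at 185 and 75.0 CPM in WT and 35.4 to 75.6 CPM in KO (log2 fold change -1.29, edgeR adjusted p = 0.0945). The log2 value was -0.49 without WT replicate 1 and -1.80 (edgeR adjusted p = 0.00859) without WT replicate 2. The desaturases Fads1 and Fads2 had KO values above both WT values, 328 to 450 against 238 and 254 CPM (log2 fold change 0.68, edgeR adjusted p = 0.0528) and 135 to 233 against 120 and 110 CPM (0.62, edgeR adjusted p = 0.489).

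In fatty acid uptake and storage, Cd36 was the only member of 27 called by edgeR or limma-voom, where edgeR called 0.195% of all genes. DESeq2 called 3. Of the 27, 19 were above 0 (median 0.16). The median was 0.15 without WT replicate 1 and 0.57 without WT replicate 2. More of them passed in the latter fit, where more of all genes passed too. Fitm1, which helps form lipid droplets, was at 5.16 and 14.9 CPM in WT and 13.2 to 33.3 CPM in KO (log2 fold change 1.27, edgeR adjusted p = 0.177, and 0.69 or 2.22 on the log2 scale without WT replicate 1 or 2). Lpl, lipoprotein lipase, was at 18.0 and 28.8 CPM in WT and 10.4 to 16.9 CPM in KO (-0.76, edgeR adjusted p = 0.261, and -1.07 or -0.39 without WT replicate 1 or 2). The 35 genes of fatty acid oxidation had none called by edgeR, DESeq2 or limma-voom. There were 7 with an unadjusted p below 0.05 and 30 above 0 (median 0.25), and 4 in which every KO library was above both WT libraries (4 of 35, against 4.98% of all genes). The 7 became 0 without WT replicate 1 and 12 (2 of them called) without WT replicate 2. Acot3, a peroxisomal thioesterase, ranged from 11.1 to 114 CPM in KO around 23.7 and 16.2 CPM in WT. Pdk4, the pyruvate dehydrogenase kinase of fasting, was at 25.7 and 3.51 CPM in WT and 2.08 to 15.4 CPM in KO, and its sign turned from -1.17 to 0.88 without WT replicate 1.

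Of 13 genes of the integrated stress response named by the study, Asns alone was called by edgeR, against 0.195% of all genes. DESeq2 called 2 (Psat1 as well), among 123 genes it called in all, and limma-voom 0. Asns, an asparagine synthetase, was at 6.04 and 2.39 CPM in WT and at 43.3, 35.4, 24.9, 35.2 and 30.4 CPM in KO. Every KO library was more than 4 times the higher WT value. The log2 fold change was 2.99 ± 0.47 (edgeR adjusted p = 0.0061), 3.82 without WT replicate 1 and 2.48 without WT replicate 2. In KO livers Asns stood at 23.0 ± 8.36 CPM (SD, n = 4) on the control diet, 33.8 ± 6.82 CPM (SD, n = 5) without tryptophan and 158 ± 19.9 CPM (SD, n = 3) without cysteine. In WT livers it stood at 1.56 ± 0.376 (SD, n = 3), 4.21 ± 2.58 (SD, n = 2) and 3.29 ± 2.36 CPM (SD, n = 4). The genotype difference without tryptophan minus that without cysteine was -2.57 log2 units (edgeR adjusted p = 0.0106), and minus that on the control diet it was -0.87 (edgeR adjusted p = 0.964).

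The 12 other stress response genes that the study named from these livers were not called by edgeR without tryptophan; since the list was chosen on these samples it is no independent evidence. Of the 13, 9 were above 0 and the median was 0.36, against 2.70 without cysteine, where 12 were called (against 28.2% of all genes). Psat1, an enzyme of serine synthesis, was at 4.76 and 1.57 CPM in WT and 10.1, 10.2, 12.2, 14.6 and 14.3 CPM in KO, with no overlap (log2 fold change 1.93 ± 0.45, edgeR adjusted p = 0.0774). Its log2 fold change was 2.96 without WT replicate 1 and 1.36 without WT replicate 2. Fgf21, a hepatokine of amino acid shortage, was at 0.268 and 2.61 CPM in WT and 1.19 to 5.65 CPM in KO (1.30 ± 1.09, edgeR adjusted p = 0.813). The log2 value was 0.41 without WT replicate 1 and 3.65 without WT replicate 2. Ddit3 (CHOP) and Slc3a2, the heavy chain of amino acid exchangers, were at -0.38 and -0.23 (Slc3a2 at -0.07 or -0.37 without WT replicate 1 or 2). For 9 of the 13 the genotype difference was smaller without tryptophan than without cysteine (edgeR adjusted p below 0.05). The element TGATGNAA was in 5 of the 12 members with a promoter window (41.7%), against 2.83% of all.

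Of 29 other ATF4 genes, none was called by edgeR, DESeq2 or limma-voom. Of the 29, 8 had an unadjusted p below 0.05 and 12 were above 0 (median -0.09). Extl1 was at 5.30 and 4.33 CPM in WT and 6.21 to 16.3 CPM in KO (1.32 ± 0.41, edgeR adjusted p = 0.248), while Atf3, at 6.77 and 2.39 CPM in WT and 0.706 to 2.66 CPM in KO, had the opposite sign (-1.61, edgeR adjusted p = 0.497, and -0.67 or -2.17 without WT replicate 1 or 2). Without WT replicate 1 the median of the 29 was 0.16 and 1 had an unadjusted p below 0.05, and without WT replicate 2 it was -0.15 with 2 called lower. The 20 cytosolic transfer RNA synthetases had 15 above 0 (median 0.14) and 1 with an unadjusted p below 0.05. None was called by edgeR, DESeq2 or limma-voom, against 19 called without cysteine (28.2% of all genes were). Wars, which charges the tryptophan transfer RNA, was at 17.4 and 19.3 CPM in WT and 17.5 to 26.4 CPM in KO (0.24, edgeR adjusted p = 0.737). Among 23 amino acid transporters Slc3a1 and Slc38a2 had the lowest values, -2.10 and -1.02, and both were high in WT replicate 1 (18.3 and 611 CPM) and in the KO range in WT replicate 2 (3.73 and 213 CPM against 1.42 to 6.08 and 134 to 298 CPM). They were at -0.53 and -0.07 without WT replicate 1, and without WT replicate 2 at -2.82 and -1.59.

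**Figure D4:**
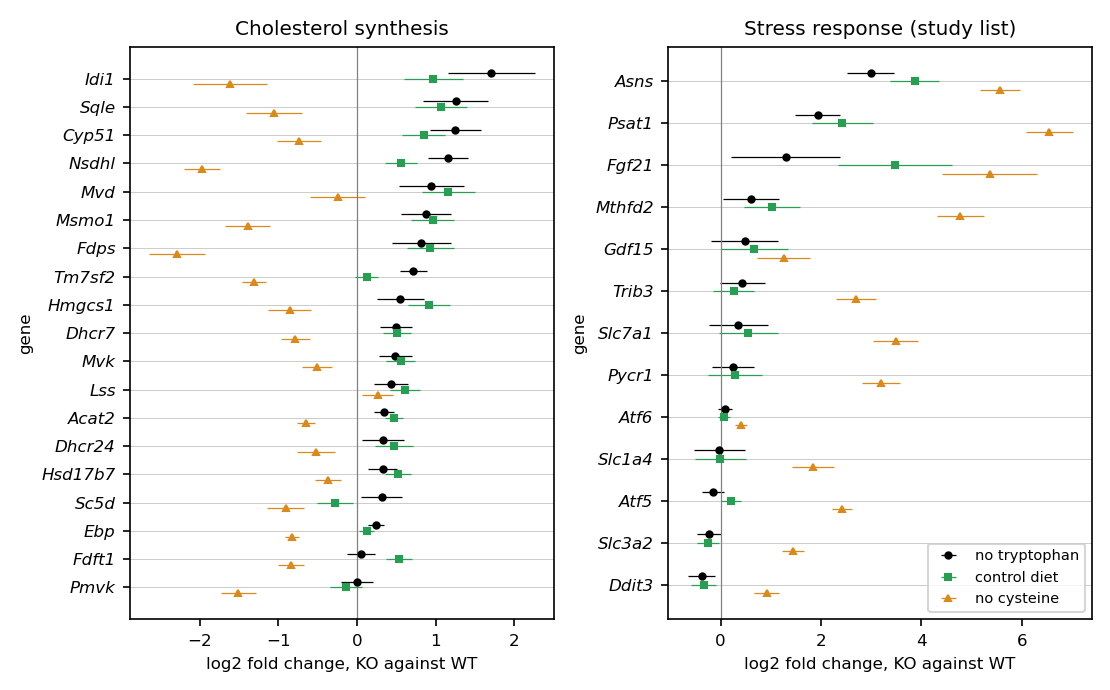
Log2 fold change of KO against WT with its standard error on the 3 diets for the 19 cholesterol synthesis genes (left) and the 13 stress response genes named by the study (right). Most cholesterol genes lie above 0 without tryptophan and on the control diet and below 0 without cysteine, and most stress response genes lie near 0 on the first 2 diets and far above 0 without cysteine.

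Genes of oxidative stress, sulfur and tryptophan metabolism gave few differences. None of the 8 NRF2 targets named by the study from these livers was called by edgeR or limma-voom (3 had an unadjusted p below 0.05, and DESeq2 called 1, lower), 4 were above 0 and the median was 0.06, against 1.90 without cysteine, where all 8 were called (against 28.2% of all genes). The median was 0.46 without WT replicate 1 and -0.28 without WT replicate 2. Since the study named these 8 from these livers, their counts without cysteine are no independent evidence. Srxn1, sulfiredoxin, was at 26.3 and 24.4 CPM in WT and 26.6 to 36.9 CPM in KO (0.37 ± 0.17, edgeR adjusted p = 0.546). Gsta2 was at 17.9 and 6.05 CPM in WT and 19.7 to 43.4 CPM in KO (1.18, edgeR adjusted p = 0.254, and 2.17 or 0.61 without WT replicate 1 or 2). Gstm3, another glutathione transferase, was at 53.9 and 16.0 CPM in WT and 10.4 to 16.2 CPM in KO (-1.30, edgeR adjusted p = 0.1). Gstm3 was at -0.17 without WT replicate 1 and at -1.92 (edgeR adjusted p = 0.00204) without WT replicate 2. Of 27 genes of sulfur amino acid metabolism, Cth was the only one called by edgeR or limma-voom, and DESeq2 called 2; without WT replicate 2 edgeR called 4. Csad, which makes hypotaurine on the way to taurine, was at 164 and 67.1 CPM in WT and 25.2 to 54.5 CPM in KO (-1.51 ± 0.41, edgeR adjusted p = 0.161), and was at -0.72 or -2.01 without WT replicate 1 or 2. Suox, sulfite oxidase, was at 91.7 and 86.6 CPM in WT and 116 to 135 CPM in KO (0.52 ± 0.12, edgeR adjusted p = 0.0758), and Bhmt, which remethylates homocysteine, at 2370 and 1588 CPM in WT and 2471 to 3260 CPM in KO (0.55, edgeR adjusted p = 0.498, and 0.87 or 0.29 without WT replicate 1 or 2).

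None of the 29 tested genes of tryptophan and NAD metabolism was called by edgeR, DESeq2 or limma-voom, and 2 had an unadjusted p below 0.05. Without WT replicate 2 edgeR called 3 and 10 had an unadjusted p below 0.05. Of the 29, 13 were above 0, the median was -0.01, and in none did the genotypes stand apart. Cyp1a2, a target of the receptor that senses tryptophan metabolites, was at 253 and 577 CPM in WT and 464 to 947 CPM in KO (0.67, edgeR adjusted p = 0.435). The log2 value was 0.20 without WT replicate 1 and 1.38 (edgeR adjusted p = 0.0245) without WT replicate 2. In coenzyme A metabolism none of 14 was called by the 3 tools and 1 had an unadjusted p below 0.05; Vnn1, the pantetheinase, was at 19.6 and 66.7 CPM in WT and 62.3 to 136 CPM in KO (1.25, edgeR adjusted p = 0.338), and 0.62 or 2.39 without WT replicate 1 or 2. Without WT replicate 2 the 14 held 1 called gene and 4 with an unadjusted p below 0.05.

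Enzymes that act on drugs and steroids were counted by family. By edgeR, 1 of 44 cytochromes P450 of families 1 to 3 and 1 of 14 of family 4 were called. Among sulfotransferases and sulfate activation genes it was 1 of 12, against 0.195% of all genes. DESeq2 called 4 (2 higher, 2 lower), 3 (2 higher, 1 lower) and 1 (higher) in the 3 lists. Limma-voom and the fit of the 2 groups alone called 0 in each. None of 16 glucuronosyltransferases and 24 glutathione transferases was called by edgeR or limma-voom (DESeq2 called 2 and 1, and 4 and 8 had an unadjusted p below 0.05; edgeR called 0 and 2 without WT replicate 2). Aldh1a7, an aldehyde dehydrogenase, was called but is in none of these lists. Sult2a7, a hydroxysteroid sulfotransferase, rose from 2.08 and 1.42 CPM in WT to 12.8, 17.6, 78.8, 30.9 and 32.5 CPM in KO (log2 fold change 4.29 ± 0.82, edgeR adjusted p = 0.0234, and 0.264 or 0.0751 without WT replicate 1 or 2). Cyp2a5, which hydroxylates coumarin and nicotine, was at 787 and 634 CPM in WT and 1122 to 1574 CPM in KO (0.89 ± 0.15, edgeR adjusted p = 0.00988, and 0.0598 without WT replicate 2). Aldh1a7 was at 92.5 and 47.1 CPM in WT and 141 to 174 CPM in KO (1.16 ± 0.20, edgeR adjusted p = 0.00959). The log2 value was 0.75 (edgeR adjusted p = 0.0511) without WT replicate 2. Cyp4a12a, a male-biased fatty acid hydroxylase, was at 13.5 and 32.2 CPM in WT and at 55.3, 114, 96.9, 103 and 100 CPM in KO (2.04 ± 0.39, edgeR adjusted p = 0.0234), while WT livers on the control diet held 138 to 179.5 CPM. Its log2 fold change was 1.54 (edgeR adjusted p = 0.316) without WT replicate 1 and 2.80 without WT replicate 2. These belong to families with close copies, whose reads the counting may have divided.

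Among uncalled members of these families, Cyp2b9 was at 1.21 and 1.79 CPM in WT and from 4.08 to 111 CPM in KO (4.39 ± 1.48, edgeR adjusted p = 0.314), and Sult1e1, estrogen sulfotransferase, at 3.76 and 1.49 CPM in WT and 8.66 to 24.6 CPM in KO (2.50 ± 0.87, edgeR adjusted p = 0.332). Leaving out 1 library gave log2 fold changes of 2.90 to 4.70 for Cyp2b9 and 1.99 to 3.32 for Sult1e1. Cyp2b10 was at 11.3 and 1.64 CPM in WT and 0.522 to 2.77 CPM in KO, with a log2 fold change of -2.34, or -0.36 and -3.14 without WT replicate 1 and 2. Cyp2c29 was at 1291 and 634 CPM in WT and 463 to 595 CPM in KO (-0.87 ± 0.19, edgeR adjusted p = 0.062). The log2 value was -0.27 without WT replicate 1 and -1.30 (edgeR adjusted p = 0.000847) without WT replicate 2. Cyp2g1 was at 1.14 and 1.57 CPM in WT and 2.16 to 5.29 CPM in KO, and Cyp4f16 at 3.35 and 4.03 CPM in WT and 0.895 to 1.94 CPM in KO (-1.40 ± 0.33, edgeR adjusted p = 0.0768). The glucuronosyltransferases Ugt2b35 and Ugt2b34 had KO values above both WT values, 139 to 182 against 104 and 111 CPM and 337 to 487 against 254 and 289 CPM (edgeR adjusted p = 0.0549 and 0.0758).

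The male-biased genes were a group in which the WT libraries disagreed. Of 25 tested, 24 were lower in WT replicate 1 than in WT replicate 2, 15 by more than 2-fold, with a median difference of -1.40 log2 units. Cyp4a12a was the 1 member called by edgeR (2 with DESeq2, 0 with limma-voom). Their median genotype difference was 0.07 with both WT libraries, -0.51 without WT replicate 1 and 1.04 without WT replicate 2. Serpina12 (vaspin) was at 44.5 and 167 CPM in WT and 2.29 to 44.8 CPM in KO (-1.75, edgeR adjusted p = 0.483), and -2.41 or -0.50 without WT replicate 1 or 2. The female-biased genes had a median of 0.05, which was 0.69 without WT replicate 1 and -0.14 without WT replicate 2, with Cd36 the only member called by edgeR or limma-voom (2 with DESeq2).

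Glucose metabolism also split the WT libraries. None of 31 genes was called by edgeR or limma-voom (12 had an unadjusted p below 0.05, and DESeq2 called 2, all lower), 28 were below 0 and the median was -0.38, but 13 were more than 2-fold higher in WT replicate 1 than in WT replicate 2. Without WT replicate 1 the median was 0.12 with 17 above 0, and the 12 became 1 lower and 1 higher. Without WT replicate 2 it was -0.67 with 5 above 0. More of the 31 passed there, in a fit where more of all genes passed too. Ppp1r3g, a glycogen-targeting subunit induced by feeding, was at 459 and 11.9 CPM in WT and 8.29 to 134 CPM in KO, and its log2 fold change turned from -2.48 to 1.83 without WT replicate 1. Irs2, an insulin receptor substrate, was at 38.5 and 3.14 CPM in WT and 3.17 to 10.4 CPM in KO, and turned from -2.05 to 0.68. The 28 genes of urea and nitrogen metabolism had none called by edgeR, DESeq2 or limma-voom, 0 with an unadjusted p below 0.05 and a median of -0.06, 0.28 or -0.27 without WT replicate 1 or 2. Without WT replicate 2, 10 had an unadjusted p below 0.05, all lower, and none was called.

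**Figure D5:**
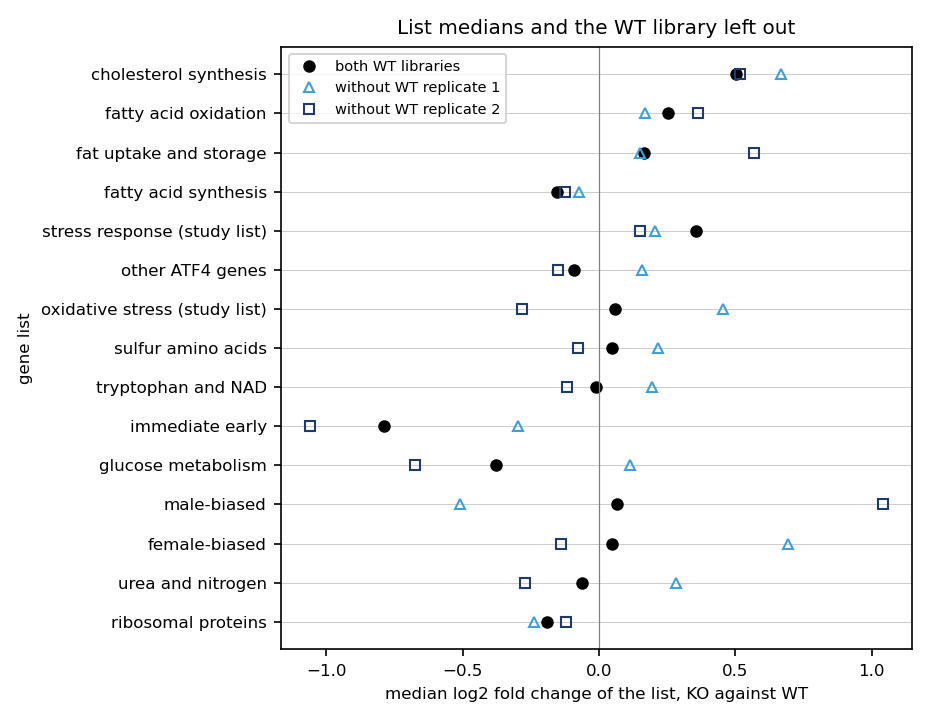
Median log2 fold change of KO against WT for 15 gene lists with both WT libraries (filled circles), without WT replicate 1 (triangles) and without WT replicate 2 (squares). The cholesterol, fatty acid oxidation, fat uptake, fatty acid synthesis, immediate early and ribosomal lists and the study's stress response list keep their sign, and the other 8 lists turn theirs.

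The 80 ribosomal protein genes had a small shift. Their summed level was 24580 and 26100.0 CPM in WT and 22410, 25490, 22000.0, 20770 and 20100.0 CPM in KO, so that KO replicate 2 lay between the WT libraries. None was called by edgeR, DESeq2 or limma-voom, 17 had an unadjusted p below 0.05 (all lower), 75 were below 0, the median was -0.19, and in 20 every KO library was below both WT libraries (against 4.97% of all genes). Rps12 was at 166 and 179 CPM in WT and 111 to 153 CPM in KO (-0.44 ± 0.15, edgeR adjusted p = 0.314), and Rpl13a at 1187 and 1077 CPM in WT and 756 to 971 CPM in KO (-0.41 ± 0.15, edgeR adjusted p = 0.354). The median was -0.24 without WT replicate 1 and -0.12 without WT replicate 2, while the 17 genes at an unadjusted p below 0.05 became 9 and 8. They were 24 without KO replicate 2, 19 with DESeq2, 7 without KO replicate 5, and 11, with 1 other higher, without KO replicate 4. They were 9 with limma-voom, 7 with library totals alone, 8 in the fit of the 2 groups alone and 2 with the replicate block. The median had the opposite sign on the control diet (0.09) and without cysteine (0.36).

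Acute phase genes had 24 of 31 above 0 (median 0.22), and Socs3 was the only one called by edgeR or DESeq2, and limma-voom called 0. Saa1 and Saa2, serum amyloid A proteins with close copies, were at 17.6 and 49.7 CPM and at 6.71 and 21.2 CPM in WT. In KO they ranged from 81.1 to 978 CPM and from 27.9 to 275 CPM, each with the top value in KO replicate 1 (edgeR adjusted p = 0.48 and 0.603). Of 24 genes of metal metabolism none was called by the 3 tools and 6 had an unadjusted p below 0.05, while edgeR called 2 without WT replicate 2; Hamp2 was at 15.7 and 6.65 CPM in WT and 13.6 to 60.1 CPM in KO, and Tfrc, the transferrin receptor, at 54.9 and 30.8 CPM in WT and 18.0 to 34.3 CPM in KO (log2 fold change -0.71, or -0.23 and -1.07 without WT replicate 1 and 2).

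Markers of other cells in the liver were compared as well. In bulk tissue fewer cells of a type and less RNA per cell cannot be told apart. The summed level of erythroid markers (7 genes) was 209 to 389 CPM in WT and 108 to 219 CPM in KO, with all 5 tested members below 0; Hbb-bs was at 233 and 109 CPM in WT and 49.996 to 124 CPM in KO (edgeR adjusted p = 0.348), and Hbb-bt at 34.1 and 14.4 CPM in WT and 6.82 to 17.5 CPM in KO. The adipocyte sum was 726 to 864 CPM in WT and 978 to 1980.0 CPM in KO, nearly all of it from Car3, carbonic anhydrase 3, at 859 and 708 CPM in WT and 976 to 1978 CPM in KO (1.00 ± 0.32, edgeR adjusted p = 0.281); 2 of 7 adipocyte markers were at 0 in all 7 libraries, and Adrb3, the beta-3 adrenergic receptor, lay the other way, at 5.36 and 18.4 CPM in WT and 3.09 to 5.11 CPM in KO (edgeR adjusted p = 0.0779). Sums for Kupffer and immune cells (267 to 305 CPM in WT, 193 to 357 CPM in KO), stellate cells (223 to 273 and 199 to 255.5 CPM) and cholangiocytes (34.3 to 47.1 and 25.6 to 48.4 CPM) overlapped. Endothelial markers summed to 287 to 362 CPM in WT and 234 to 320 CPM in KO. No marker of these lists was called by edgeR or limma-voom with all libraries. Adrb3 was called by DESeq2 and without the filter on low counts. Its log2 fold change of -1.57 was -2.21 without WT replicate 1 and -0.43 without WT replicate 2. The part of these cell types in the results above was not tested.

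The genotype difference without tryptophan was then tested against that on the other diets. Against the control diet, edgeR called 0 of 14370 genes (0.00%) with 821 (5.71%) at an unadjusted p below 0.05, DESeq2 called 18 and limma-voom 0; without WT replicate 2 edgeR called 67. The differences for the immediate early genes were -4.64 for Nr4a1 (edgeR adjusted p = 0.361), -2.06 for Socs3 (edgeR adjusted p = 0.332) and -2.05 for Egr1 (edgeR adjusted p = 0.359). For the 9 genes called on all 3 diets the differences were -0.87 for Asns, 0.69 for Snhg11, -0.53 for Robo1, 0.49 for Sult2a7, -0.45 for Cth, 0.43 for Cenpm, 0.40 for Cd36, 0.24 for Ppp1r9a and 0.12 for Tmem19, with adjusted p from edgeR of 0.922 (Snhg11) to 0.987 (Tmem19).

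Against the diet without cysteine, 912 genes (6.35%) differed in their genotype effect, 435 with a higher log2 fold change without tryptophan (3.03%) and 477 with a lower one (3.32%). When libraries were scaled by their totals alone the count was 1256 and the split 233 to 1023. The highest values were those of 4 acute phase or secreted protein genes and Chrna4, a nicotinic receptor subunit. Saa2 differed by 10.29, Saa1 by 8.98, Orm2 (an orosomucoid) by 5.48, Mup8 (a major urinary protein) by 4.97 and Chrna4 by 4.92. Saa1 averaged 1642 CPM in WT and 27.9 CPM in KO without cysteine, and 33.6 and 284 CPM without tryptophan. Among the lowest were Psat1 at -4.62 (edgeR adjusted p = 0.00033), Nupr1, a stress-induced chromatin protein, at -4.48 (edgeR adjusted p = 0.00454), Nr4a1 at -4.68 (edgeR adjusted p = 0.00702) and the pseudogene Gm8210 at -5.44. Nupr1 averaged 36.1 CPM in KO without cysteine and 2.26 CPM in KO without tryptophan, while for Nr4a1 the difference came from the WT libraries without tryptophan. Vmn2r3, a vomeronasal receptor, averaged 15.9 CPM in KO without cysteine, where it was at 0 in every WT library, and 0.400 CPM in KO without tryptophan.

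By list, 15 of the 19 cholesterol synthesis genes had a higher genotype difference without tryptophan than without cysteine (against 3.03% of all genes), among them Idi1 (3.32, edgeR adjusted p = 0.00907) and Sqle (2.31, edgeR adjusted p = 0.0139). Of the 80 ribosomal protein genes 33 had a lower one (against 3.32% of all genes), of 20 transfer RNA synthetases 11, of 29 other ATF4 genes 11, of the study's 13 stress response genes 9 and of its 8 NRF2 targets 6. Immediate early genes held 7 of 31 with a lower difference. In these lists no called member lay on the other side. The stress response and NRF2 lists were named by the study from these livers, so their counts here are no independent evidence.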

How the data were processed

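Poly(A) RNA from livers of 6 groups (2 genotypes on 3 diets) was sequenced and 21 libraries were analysed. The deposited values are whole-number read counts per Ensembl gene; per the labels the authors used HISAT2 (2.1.0) on GRCm38 and HTSeq (0.11.0), and the annotation release and strand setting are not given in the sources used here. One further column matched no sample label and was not used (1 column). Of 46078 genes, 45229 matched GENCODE M21 for names and positions; the other 849 held 0.0536% of counts. Groups and replicate numbers came from the labels, which call the replicates biological.

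Counts were analysed with edgeR (4.0.16, R 4.3.3): filterByExpr (minimum count 10, minimum total 15; 14370 genes kept), TMM scaling (factors 0.883 to 1.14), one fit over the 6 groups, and quasi-likelihood tests of KO against WT without tryptophan and of that difference against each other diet. The fold change is fitted, its SE is the fold change over the square root of F, and a gene was called at a Benjamini-Hochberg adjusted p of 0.05. The SE draws on the spread of all 21 libraries and can understate the spread of the WT pair. The fit recovered known changes in simulated counts. There the WT pair varied as the other groups did, so recovery was not tested for a pair that stands apart. Alternatives were DESeq2 (1.42.0), limma-voom with quality weights (limma 3.58.1), RLE factors, library totals, no filter, the replicate block, the 2 groups alone, and each library left out; leaving out 1 WT library assumes that the other varies as libraries of other groups do. Named genes were Cth, all called genes, the called members of the lists described with some of the 2 highest and 2 lowest others (over 1 log2 CPM), and the 5 highest and 5 lowest called differences between diets. The groups, lists and named genes were chosen with earlier results of these data known. Promoter windows came from RefSeq (GRCm38.p6), matched by symbol. One gene of the cholesterol synthesis list is not reported here.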

Additional observations from a re-analysis of the deposited data

Results flagged for a closer look

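In the 5 KO livers without tryptophan, 7 of the 86 named genes had 1 library far from the other 4, with a gap to its neighbour above 0.71 of the whole range on a log2 scale (Dixon's criterion, which chance meets in about 1 of 20 groups). KO replicate 1 was the distant library for 5 of them. It was high for Irs2 (10.4 CPM against 3.17 to 3.90, gap 0.833), Slc3a1 (6.08 CPM against 1.42 to 1.78, gap 0.861), Saa1 (978 CPM against 81.1 to 138, gap 0.787) and Vmn2r3 (1.25 CPM against 0.0988 to 0.298, gap 0.732), and low for Cyp4a12a (55.3 CPM against 96.9 to 114, gap 0.775). KO replicate 3 was low for Serpina12 (2.29 CPM against 32.8 to 44.8, gap 0.89), and KO replicate 2 for Ugt2b35 (139 CPM against 172 to 182, gap 0.785). Irs2, Slc3a1 and Vmn2r3 were also high in WT replicate 1 and Cyp4a12a low there, whereas Saa1 was lower in WT replicate 1 (17.6 CPM) than in WT replicate 2 (49.7 CPM), and what the libraries numbered 1 share was not tested.

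The genotype difference without tryptophan differed from that without cysteine, by an interaction test in edgeR at an adjusted p of 0.05, for 33 named genes. Among immediate early and stress response genes the difference was -4.68 log2 units for Nr4a1, -1.67 for Socs3, -1.49 for Egr1, -3.28 for Atf3, -2.57 for Asns, -4.62 for Psat1, -1.30 for Ddit3, -1.67 for Slc3a2, -2.25 for Extl1 and -4.48 for Nupr1. Among antioxidant and ribosomal genes it was -4.14 for Gstm3, -0.98 for Srxn1, -0.73 for Rps12 and -0.77 for Rpl13a. Among lipid and glucose genes it was 3.32 for Idi1, 2.31 for Sqle, 1.15 for Fads1, 1.86 for Fitm1, 1.57 for Car3, -2.20 for Pklr and -2.99 for Irs2. Secreted and acute phase genes differed by 8.98 for Saa1, 10.29 for Saa2, 5.48 for Orm2 and 4.97 for Mup8. The other values were 0.81 for Tmem19, 1.79 for Tmem98, 3.18 for Rslcan18, 4.92 for Chrna4, -1.005 for Arsg, -0.82 for Cyp2a5, -5.44 for Gm8210 and -10.95 for Vmn2r3, the last of which depends on the prior count since every WT library without cysteine was at 0.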

How the results depend on the processing

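The count of genes called without tryptophan, 28, was 123 with DESeq2, 6 with limma-voom with quality weights, 101 without the filter on low counts and 4 in a fit of the 2 groups alone, against 28 with RLE factors and 30 with library totals. Leaving out 1 library gave 14 (without WT replicate 1) to 230 (without WT replicate 2), with 51 without KO replicate 1; the cause was not tested. The difference from the control diet, 0 genes, was 18 with DESeq2 and 10 without the filter, and 0 to 67 when 1 library was left out, with 67 without WT replicate 2 and 1 without KO replicate 1 or 5. The difference from the diet without cysteine, 912 genes, was 553 with limma-voom, and 416 (without KO replicate 3 on that diet) to 1179 when 1 library was left out. Replicate numbers 1 and 2 occur in both genotypes, and deviations of libraries with the same number correlated at 0.388 and 0.132; with 2 pairs and no stated link the samples share only a number. With the replicate block 21 genes were called, 15 of them among the 28, none differed from the control diet (0) and 630 differed from the diet without cysteine.

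When 1 library was left out, the log2 fold change ran from -3.55 to 1.83 for Ppp1r3g, -2.93 to 0.68 for Irs2, -1.05 to 0.46 for Dnajb4, -1.98 to 0.88 for Pdk4 and -1.12 to 1.56 for Chrna4, each positive only without WT replicate 1, from -0.16 to 1.83 for Orm2, negative only without WT replicate 2, from -0.88 to 1.82 for Gadd45b, negative only without KO replicate 1, and from -1.30 to 5.69 for Vmn2r3. With limma-voom the sign turned for Gadd45b (-0.62), Chrna4 (0.20) and Vmn2r3 (0.57). With all libraries edgeR called none of these 8 genes (0 also with DESeq2 and limma-voom); without WT replicate 2 it called Irs2 (edgeR adjusted p = 0.00105), Dnajb4 (edgeR adjusted p = 0.00368) and Ppp1r3g (edgeR adjusted p = 0.0391), and Irs2 also without KO replicate 1 or without the filter on low counts. Genes under about 1 CPM rest on few reads, and with 2 WT libraries that stand apart small differences may have been missed. What size of difference could be detected was not tested. Counts of list members that pass without WT replicate 2 come from a fit in which more of all genes passed too.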

Other observations

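Several other gene groups were measured. Among 26 chaperones and folding enzymes of the endoplasmic reticulum, 21 had a log2 fold change above 0 (median 0.17) and none was called by edgeR, DESeq2 or limma-voom without tryptophan (1 had an unadjusted p below 0.05, and edgeR called 1 without WT replicate 2), against 15 called higher without cysteine (where 14.8% of all genes were). The 20 major urinary protein genes tested, a family with close copies, had 15 above 0, none called by edgeR or limma-voom (3 with an unadjusted p below 0.05, 2 called by DESeq2) and a median of 0.54, which was 0.17 without WT replicate 1 and 1.12, with 1 called, without WT replicate 2. Among 29 genes of bile acid metabolism the median was 0.04 with none called by the 3 tools and 0 with an unadjusted p below 0.05; without WT replicate 2 there were 10, 1 of them called. Among 37 subunits of respiratory complex I the median was -0.01, or -0.03 and 0.05 without WT replicate 1 and 2. None was called by the 3 tools and 0 had an unadjusted p below 0.05. Without cysteine the median was -0.30 and 13 were called lower (against 13.4% of all genes). In 17 genes of the IGF axis the median was -0.18, with Socs3 the 1 member called by edgeR or DESeq2 and 0 called by limma-voom, or with 0 called by edgeR without WT replicate 1 and 2 without WT replicate 2. Within 10 Mb of Cth, the highest and lowest uncalled genes over 1 log2 CPM were Zranb2 (27.0 and 31.9 CPM in WT, 33.2 to 44.8 CPM in KO) and Dnajb4 (77.3 and 27.0 CPM in WT, 30.6 to 49.9 CPM in KO).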
